A study of Mus musculus with 12 samples.

Results

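Metaphase II (MII) eggs of Lsm14b conditional knockout mice were compared with MII eggs of control mice, over every gene whose normalized counts averaged 10 or more in the 6 MII libraries. This left 15336 of the 22801 genes with MII values. Control eggs (WT) were Lsm14b fl/fl without a recombinase, and knockout eggs (CKO) were Lsm14b fl/fl with Gdf9-Cre, which is active in growing oocytes, so that all animals shared the floxed alleles and the C57BL/6 strain. The females were at postnatal day 35, the eggs came from the ovary, and each tube held 15 oocytes that were lysed together. The study named 3 biological replicates per group, numbered 1, 2 and 3 in WT and 2, 3 and 4 in CKO. The other 6 of its 12 libraries were made from oocytes at the germinal vesicle (GV) stage. No group carried Gdf9-Cre without the floxed alleles, so an effect of the recombinase itself and of the loss of Lsm14b cannot be told apart.

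LSM14B belongs to a family of RNA-binding proteins found in cytoplasmic granules that hold mRNAs in a silent state. A fully grown oocyte stops transcription, and the egg then depends on mRNAs that were stored during growth. During maturation to MII these mRNAs are activated, kept or degraded in an ordered way through changes in their poly(A) tails. In such cells a difference in mRNA level can therefore arise during growth, in storage or during maturation, and the values below do not separate these.

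Recovered reads per library ran from 88494525 to 124872889 in WT and from 23077585 to 40530314 in CKO, so every WT library was deeper than every CKO library. WT replicate 3 stood apart, with Spearman correlations of 0.834 to 0.885 with the other libraries, which reached 0.907 to 0.965 among themselves. Results are therefore given with all 6 libraries and again without WT replicate 3. All 16 oocyte markers passed the minimum, and they summed to 759460 to 840052 normalized counts in WT and 915931 to 1020654 in CKO. Single markers went both ways. Every CKO library was above every WT library for 4 of them, Zp2, Zp3, Nlrp5 and Nobox, and below for 2, Bmp15 and Dazl. Bmp15 stood at 113206, 122875 and 159949 in WT and 47016, 62545 and 78335 in CKO. Of 14 cumulus and granulosa markers with MII values 6 passed it and 0 were called, with a summed level of at most 3378 in WT and 1530 in CKO, led by Cyp19a1, the aromatase gene. Below the minimum, Cyp11a1, Lhcgr, Fst and Nr5a1 were at 0 in every WT library and low in CKO. In CKO replicate 2 they stood at 16.5, 20.7, 5.51 and 12.4, in replicate 3 at 0, and in replicate 4 Lhcgr at 20.7 and the others at 0. Other markers below the minimum went the other way and were at 0 in every CKO library. These were Has2, at 0, 23.3 and 32.3 in WT, Amh, at 0, 28.7 and 0, and Hsd17b1, at 0, 4.19 and 0. For 3 of the 14, Fshr, Inhba and Ptgs2, every CKO library was above every WT library, and the groups did not overlap, in either direction, for 27.67% of all genes tested. Fshr, the follicle-stimulating hormone receptor gene, stood at 34.2, 4.79 and 0 in WT and 157, 96.2 and 90.9 in CKO, and Ptgs2 at 7.66, 0 and 0 and 167, 20.3 and 31.7. The median log2 difference of the 6 that passed was 2.04, or 1.81 without WT replicate 3.

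Among markers of other cells, single genes were lower in CKO and others overlapped between the groups. The 8 theca, stroma and endothelium markers with values summed to 3871 to 4867 in WT and 3968 to 4749 in CKO, and 0 of the 6 that passed the minimum were called. The sums were led by the endothelial gene Pecam1, at 3422, 4060 and 2841 in WT and 4198, 3998 and 3771 in CKO, whose groups overlapped. The endothelial genes Tie1, at 703, 446 and 695 in WT and 297, 159.5 and 158 in CKO, and Kdr, at 114, 178 and 124 and 64.7, 0 and 0, did not overlap between the groups, with CKO below WT. Of 2 sperm and early embryo markers with values, Acrv1 overlapped between the groups. The other, Gata6, stood at 78.4, 87.9 and 260.0 in WT and at 0 in every CKO library, and it was called lower in both fits (adjusted p = 0.0291 and 0.0323). Blood and immune markers summed to 1118 to 1973 in WT and 194 to 255 in CKO. Their leading gene C1qb, a complement component, was called lower (log2 difference -3.32, adjusted p = 0.0143). The fall in the sum was that of C1qb, at 1904, 1493 and 1049 in WT and 112.897, 194.955 and 133.607 in CKO. The groups overlapped for every other marker of this list. Among these, Cd68 stood at 21.2, 7.18 and 66.1 in WT and 95.0, 20.3 and 60.6 in CKO. The part of these cells in the results below was not tested, and in such bulk samples fewer cells of a type and less RNA per cell cannot be told apart.

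Lsm14b itself was low in every CKO egg library. Its normalized counts were 10868, 10643 and 11641 in WT replicates 1, 2 and 3 and 822, 982 and 920.1 in CKO replicates 2, 3 and 4. The groups were far apart, and WT replicate 3 lay with the other WT libraries for this gene. The log2 difference was -3.61 (SE 0.25, adjusted p = 0.00385) with all libraries, and leaving out WT replicate 3 gave -3.57 (adjusted p = 0.00275). Its paralog Lsm14a, the other LSM14 gene, was not called in either fit. It stood at 4031, 5560 and 17825 in WT and 3319, 3924 and 7873 in CKO, and its log2 difference was -0.65 (SE 0.56, adjusted p = 0.547) or -0.02 without WT replicate 3 (adjusted p = 0.983). The highest Lsm14a value was that of WT replicate 3.

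With all 6 libraries, 109 genes (0.711% of those tested) passed an adjusted p of 0.05 as higher in CKO and 212 (1.38%) as lower. The log2 differences of these calls, taken on log2(normalized count + 1), had medians of 2.48 up and 2.48 down in size, the smallest being 1.26 and 1.18. Without WT replicate 3, 563 genes (3.67%) were higher and 619 (4.04%) lower, and all 321 calls of the 6 libraries were among these 1182. In each of the 321 the 3 WT values lay wholly on one side of the 3 CKO values, as they did in 27.67% of all genes tested. Among the calls of the 6 libraries, 25 lower genes were at 0 in every CKO library and 9 higher genes at 0 in every WT library, and their log2 differences depend on the pseudocount. Over all genes the median log2 difference was -0.03, or -0.13 without WT replicate 3, and list medians are to be read against these values. Likewise, every count of calls in a list below is to be read against the shares of all genes given here.

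How many genes passed depended on the libraries. Leaving out WT replicate 2, CKO replicate 2 or CKO replicate 3 left 0 calls in either direction, where the unadjusted p of the same limma fits was under 0.05 for 820 to 1117 higher genes and 1266 to 1338 lower ones. The fit without WT replicate 1 called 2 genes higher, Pabpc1 and Mfhas1, and 6 lower, Lsm14b, Kcnh3, Mrpl2, Pabpn1l, Zc3h6 and Znhit2. The fit without CKO replicate 4 called 0 higher and 6 lower, namely Lsm14b, Kcnh3, Zc3h6, Znhit2, Atf1 and Mafg. No gene was called in all of these fits, and every value below is to be read with that limit. With limma-voom on the recovered reads of the 6 libraries, 25 genes were higher and 31 lower. With reads thinned to equal size factors, which removes the difference in depth, 117 were higher and 217 lower.

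**Figure D1:**
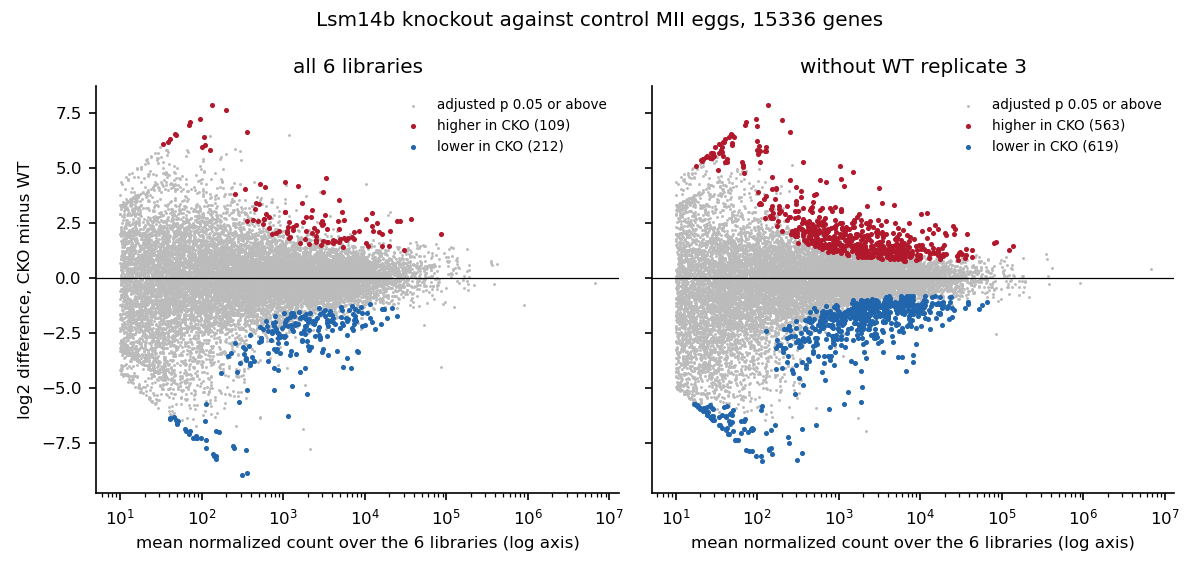
Log2 difference between CKO and WT eggs (vertical axis, log2 of normalized count + 1) against the mean normalized count of the gene (horizontal log axis), with all 6 libraries on the left and without WT replicate 3 on the right. Each point is 1 gene. Red and blue points are the 109 higher and 212 lower genes on the left and the 563 and 619 on the right, and the called genes on the right reach down to smaller differences.

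The named rises by size covered cytoskeletal, mitochondrial, signalling and protein-quality genes. The 11 described were among the 12 largest of 73 rises that were called in both fits, did not overlap and averaged 500 normalized counts or more, leaving out unnamed gene models and 16 genes ranked in earlier work on these data. Arpc1a, a subunit of the Arp2/3 actin nucleator, stood at 59.5, 74.8 and 26.1 normalized counts in WT replicates 1, 2 and 3 and 1338, 769.7 and 861 in CKO replicates 2, 3 and 4 (log2 difference 4.27, SE 0.59, adjusted p = 0.0165). Every CKO value of Arpc1a was more than 10 times the highest WT value. Clpx, the unfoldase of the mitochondrial ClpXP protease, went from 256, 163 and 264 to 1280, 1752 and 2657 (log2 3.02, SE 0.43, adjusted p = 0.0178). Epha7, a receptor for ephrins, was tight within each group, at 194, 267 and 248 in WT and 1827, 1993 and 1836 in CKO (log2 3.0, SE 0.35, adjusted p = 0.0111). The groups did not overlap in either gene, which was a condition for naming these rises. Cct4, a subunit of the cytosolic chaperonin that folds actin and tubulin, stood at 566, 754 and 371 in WT and 3794, 3048 and 4596 in CKO (log2 2.79, adjusted p = 0.0143).

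Wee1, the kinase that holds CDK1 inactive, was also among these rises. Its values were 2064, 1645 and 411 in WT and 8623, 12075 and 6862 in CKO, with a log2 difference of 3.0 (SE 0.57, adjusted p = 0.0373) that was 2.28 without WT replicate 3 (adjusted p = 0.00731). WT replicate 3 was the lowest library for Wee1, for Extl1, a glycosyltransferase of the heparan sulfate family, and for Mid1, a microtubule-associated ubiquitin ligase. Mid1 was the most abundant of the 11, at 17344, 13077 and 3801 in WT and 81663, 67178 and 41097 in CKO (log2 2.68, adjusted p = 0.0478). The remaining rises were Prmt9, an arginine methyltransferase, Runx2, a transcription factor best known from bone, Coq9, needed for coenzyme Q synthesis, and Pinlyp. Their log2 differences were 2.90, 2.77, 2.67 and 2.69 in that order, and that of Extl1 was 2.89. At the GV stage the authors' deposited table had 10 of the 11 as higher, with log2 fold changes from 1.01 for Clpx to 2.54 for Epha7, and Coq9 was absent from that table of selected genes.

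The named falls by size, the 12 largest of 142 that met the same conditions, included mRNA-binding, mitochondrial, transcription and cell-surface genes besides Lsm14b. Mrpl2, a protein of the large mitochondrial ribosomal subunit, fell from 13988, 13908 and 10367 normalized counts in WT to 1202, 565 and 631 in CKO (log2 difference -4.07, SE 0.35, adjusted p = 0.00429). Pabpn1l, an egg and embryo protein that binds poly(A) tails, stood at 5749, 7355 and 17513 and 672, 509 and 484 (log2 -4.04, adjusted p = 0.0111). WT replicate 3 was the highest library for Pabpn1l, and without it the log2 difference was -3.56 (adjusted p = 0.00275). Zc3h6, a CCCH zinc-finger protein, was the most abundant of these falls, at 15091, 17682 and 12165 and 1435, 1180 and 1774 (log2 -3.36, SE 0.28, adjusted p = 0.00429). Both groups were narrow and lay far apart for Zc3h6.

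Several of these falls were transcription regulators. Atf1, a cyclic AMP-responsive factor of the CREB family, stood at 6002, 6003 and 7437 in WT and 374, 582.3 and 889.8 in CKO (log2 -3.48, adjusted p = 0.0111). Tfap2c, a factor used in early embryos and trophoblast, stood at 1502, 1653 and 3530 and 255, 179.8 and 131 (log2 -3.50, adjusted p = 0.015). The CKO values of both factors were well under the lowest WT value. Rbl1, the retinoblastoma-family protein p107, stood at 1492, 1548 and 584 and 138, 129 and 62.0 (log2 -3.40, adjusted p = 0.0273), with WT replicate 3 the lowest control. Phf20l1, a reader of methylated lysine, had the largest fall of the 12, from 988, 1140 and 2254 to 50.9, 78.5 and 127 (log2 -4.08, SE 0.55, adjusted p = 0.0146). The other falls were Cldn9, a tight-junction claudin, Ece1, an endothelin-converting enzyme, Srp19, a protein of the signal recognition particle, and Susd3. Their log2 differences were -3.75, -3.44, -3.41 and -3.33 in that order. Of the 12 falls the authors' deposited table had 11 as lower at GV too, from -1.11 for Mrpl2 to -4.45 for Ece1 on the log2 scale, and Srp19 was absent. All 23 genes described by size kept their direction under limma-voom, which called 10 of them.

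**Figure D2:**
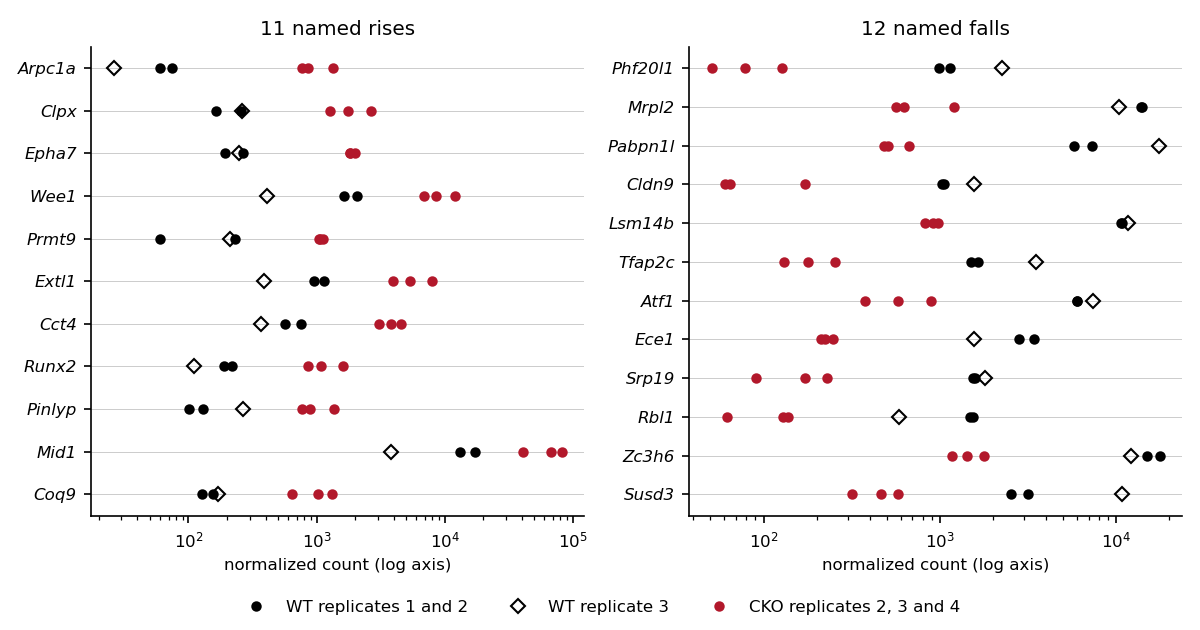
Normalized counts (horizontal log axis) of 11 named rises and the 12 named falls in each MII library. Filled black points are WT replicates 1 and 2, open diamonds WT replicate 3 and red points the CKO libraries. The groups overlap in no gene because lack of overlap was a condition for naming these genes.

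The 3′ UTR is where storage and decay factors bind, and AU-rich motifs there are known from mRNA turnover. Of the 12 falls named by size, 11 had a 3′ UTR of at least 100 bases in GENCODE vM21 and 4 of these held the motif TATTTAT, searched on the transcript strand. The first match in each is printed with 10 bases on either side and the motif in capitals, to show the surroundings of such motifs in genes that fell.
Phf20l1: aattatgatgTATTTATatagttttag
Tfap2c: tccactaaaaTATTTATctaaaaaaaa
Ece1: aagattagtaTATTTATtatgttctct
Zc3h6: ctctatagttTATTTATtttttaaatt
Phf20l1, at chr15:66642261-66642287, held 2 matches in a UTR of 3315 bases. Tfap2c, at chr2:172557808-172557834, held 4 in 1243 bases. Ece1, at chr4:137963369-137963395, and Zc3h6, at chr2:129017652-129017678, held 1 each. All 4 sites lie on the plus strand of GRCm38 in the annotated 3′ UTR. The letters were not found in the other 7 UTRs, which included those of Lsm14b itself, Atf1 and Pabpn1l.

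Over all genes, those with TATTTAT in the 3′ UTR were called lower more often. A protein-coding transcript was matched by symbol to 12453 genes (81.2%), of which 11566 had a 3′ UTR of at least 100 bases. The motif was absent from 71.0% of these UTRs, present once in 19.8% and at least 2 times in 9.18%. The shares of genes called lower in these classes were 1.27%, 2.14% and 2.35% with all libraries and 3.85%, 5.9% and 6.5% without WT replicate 3. The shares called higher were 0.791%, 0.962% and 0.659% with all libraries, in no order, and 4.503%, 3.804% and 3.39% without WT replicate 3, falling with more matches. UTRs with more matches were also longer, with medians of 766, 1715 and 2857 bases. When the UTRs were split by length into 5 classes of equal size, genes with a match were called lower more often than genes without one in each class. The shares were 2.16% (3 of 139 genes) against 1.19% in the shortest class and 1.53% against 0.850% in the longest. With all libraries, genes with a match were also called higher more often in the longest class (1.17% against 0.638%) and the next longest (0.906% against 0.629%). In the shorter classes they were called higher less often, and without WT replicate 3 this held in every class. For the cytoplasmic polyadenylation element (TTTTAT or TTTTAAT in the last 100 bases) the shares called lower were 1.75% with and 1.49% without, and for the Pumilio motif TGTANATA they were 1.65% and 1.501%. The matches are letters in an annotated transcript, not measured sites, and these shares are a description with no test, looked at after the values were seen.

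WT replicate 3 decided whether 861 further genes passed. Over the 454 genes higher without it and not with it, WT replicate 3 lay at a median of 41.3% of the way from the other WT libraries to the CKO mean, and over the 407 lower ones at 60.2%. Khdc3, a member of the subcortical maternal complex of the egg, was one of them, at 37.7, 85.5 and 381 in WT and 1301, 838 and 1551 in CKO. Its log2 difference was 3.46 (adjusted p = 0.064), or 4.36 without WT replicate 3 (adjusted p = 0.00596). WT replicate 3 lay between the other WT libraries and the CKO libraries. Rpsa, a protein of the small ribosomal subunit, stood at 57.2, 101 and 491 and 2387, 904 and 2423 (log2 3.60, adjusted p = 0.0564; without WT replicate 3 4.49, adjusted p = 0.00655). Timm9, a chaperone of mitochondrial protein import, showed the same, at 189.8, 111 and 582.0 and 1356, 866 and 2258. In Stambpl1, a deubiquitinase, WT replicate 3 was at 0, against 184 and 82.6 in the other WT libraries and 2656, 2051 and 2029 in CKO (log2 4.16 without WT replicate 3, adjusted p = 0.00395). Pear1, a platelet endothelial receptor, was another rise without that library (log2 3.07), and Cobl, an actin nucleator, Elk3, an ETS transcription factor, and Slamf1, an immune-cell receptor, were falls (-6.67, -4.62 and -3.51).

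Genes of mRNA storage were called in both directions. Of 42 storage granule and repressor genes, 2 were higher and 2 lower with all libraries, or 5 and 4 (11.9% and 9.52%, against 3.67% and 4.04% of all genes) without WT replicate 3. Pabpc1, the cytoplasmic poly(A)-binding protein, had the lowest p of the list, with 561, 196 and 484 normalized counts in WT and 6982, 4183 and 6219 in CKO (log2 3.91, adjusted p = 0.0111). Patl2, an oocyte ribonucleoprotein that partners LSM14 in silent particles, went from 643, 852 and 1266 to 4333, 3385 and 3234 (log2 2.03, adjusted p = 0.0273). Cpeb4, which binds the cytoplasmic polyadenylation element, was lower, at 4103, 4431 and 2996 and 934, 1382 and 742 (log2 -1.94, adjusted p = 0.0291). Msi2, a translational regulator, was detected in 1 of 3 CKO libraries, at 0, 10.1 and 0 against 402, 269 and 773 in WT. Without WT replicate 3 the helicase gene Ddx6, a core partner of LSM14 proteins, was higher (log2 2.41, adjusted p = 0.00569), and Dazl, a germ-cell activator of translation, was lower (-1.22, adjusted p = 0.0309). With all libraries these were at 1.89 (adjusted p = 0.0756) and -1.63 (adjusted p = 0.0712). Ddx6 stood at 789.7, 562 and 1977 in WT and 3677, 4064 and 3007 in CKO, with WT replicate 3 the highest control.

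Few genes of mRNA removal were called. Of 40 deadenylation, decapping and uridylation genes, 0 were higher and 2 lower with all libraries, or 0 and 3 without WT replicate 3, and the list medians were -0.39 and -0.22. The lower shares were 5.0% and 7.5%, where all genes had 1.38% and 4.04%, and in a list of this size 0 higher genes is close to the 0.711% and 3.67% of all genes. Besides Pabpn1l, the lower genes encode subunits of the CCR4-NOT deadenylase. Cnot6, one of its catalytic subunits, stood at 1137, 1322 and 2435 in WT and 381, 278 and 303 in CKO (log2 -2.27, SE 0.42, adjusted p = 0.0329). The CKO values of Cnot6 were close together, and all lay under the WT values. Cnot3 was lower without WT replicate 3 (-1.76, adjusted p = 0.00731). For the median gene of this list WT replicate 3 lay 0.62 log2 units above the gene means, where WT replicates 1 and 2 lay at 0.21 and 0.09 and the CKO libraries at -0.15 to -0.23. Of 31 exosome and nonsense-mediated decay genes 0 passed with 6 libraries, and 0 were higher and 3 lower without WT replicate 3. These were the exosome subunit genes Exosc3 (-3.10) and Exosc10 (-1.22), and Zcchc8 (-1.08), part of the complex that hands RNA to the nuclear exosome.

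In poly(A) tail formation and splicing, single genes passed. Tent4b, a noncanonical poly(A) polymerase, stood at 5001, 5925 and 5537 in WT and 2024, 1762 and 2135 in CKO (log2 -1.48, adjusted p = 0.0291). Cstf2, a cleavage stimulation factor, stood at 1033, 1193 and 944 and 2496, 3360 and 3464 (log2 1.55, adjusted p = 0.0373). Both genes had narrow groups with WT replicate 3 close to the other WT libraries, and they differed in opposite directions. Of 25 cleavage and polyadenylation genes 3 were higher and 1 lower when that library was left out. The splicing factor gene Bud13 was the 1 call among 61 spliceosome genes with all libraries. Its values were 3079, 3464 and 4187 in WT and 549, 382 and 343 in CKO (log2 -3.09, SE 0.33, adjusted p = 0.0111), so that every CKO value was far under the WT range. The second fit, without WT replicate 3, called 0 spliceosome genes higher and 3 lower. In small RNA pathways, with 30 genes tested, the call with all libraries was Xpo5, the exporter of microRNA precursors, which was lower (log2 -1.68, adjusted p = 0.0279). The second fit called 2 higher genes besides, Tnrc6a, a partner of Argonaute (1.08), and Henmt1, which methylates small RNAs (1.28), and the list medians were positive, at 0.58 and 0.42. None of 19 m6A writers, erasers and readers passed in either fit. Their smallest p was that of the writer subunit gene Mettl14 (log2 -1.40, adjusted p = 0.0924, or 0.0572 without WT replicate 3).

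Calls among cytosolic ribosomal protein genes were higher in CKO. Of 76 cytosolic ribosomal protein genes tested, 2 (2.63%, against 0.711% of all genes) were higher with all libraries and 9 (11.8%, against 3.67%) without WT replicate 3, and 0 were lower in either fit. The list medians were 0.28 and 0.91. Rpl5, a large-subunit protein, went from 881, 1045 and 1232 in WT to 4720, 2661 and 4620 in CKO (log2 1.89, SE 0.34, adjusted p = 0.0301). Rps4l, a copy of the small-subunit gene Rps4x, went from 30.6, 70.0 and 92.8 to 1356, 585 and 1410 (log2 4.13, adjusted p = 0.0217). In both genes the lowest CKO library was replicate 3, still above all WT libraries. Rpl11, another large-subunit protein, stood at 133, 121 and 922 in WT and 1567, 861 and 1143 in CKO. WT replicate 3 lay within the CKO range for Rpl11, far above the other WT libraries. Its log2 difference was 2.23 (adjusted p = 0.158) with all libraries and 3.18 (adjusted p = 0.00687) without WT replicate 3. For the median gene of this list WT replicate 3 lay 1.17 above the gene means, more than any CKO library, and CKO replicate 3 lay at -0.32, close to WT replicate 2 at -0.44. Ribosomal protein genes have many processed copies in the genome, and reads shared with them make these values uncertain.

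Of 73 mitochondrial ribosomal protein genes, 0 were higher and 3 lower with all libraries, and 1 was higher and 4 lower without WT replicate 3. The list medians were -0.57 and -0.40. The shares called lower were 4.11% with all libraries, against 1.38% of all genes, and 5.48% without WT replicate 3, near the 4.04% of all genes. With all libraries the lower genes, Mrpl2, Mrpl10 and Mrpl22, belong to the large subunit. The second fit added the small-subunit genes Mrps2 as lower (-1.19) and Mrps9 as higher (1.70). Mrpl10 stood at 5037, 5177 and 7204 in WT and 1279, 1413 and 1132 in CKO (log2 -2.17, SE 0.28, adjusted p = 0.0143). Mrpl22 stood at 3366, 3489 and 2806 and 1348, 818 and 1061 (log2 -1.60, adjusted p = 0.0383). In both genes every CKO library was well under every WT library. Among 61 ribosome biogenesis genes 0 were higher and 3 (4.92%, against 1.38% of all genes) lower, or 2 and 5 (8.2%, against 4.04%) without WT replicate 3. Gnl2, a GTPase of large-subunit assembly, fell from 1567, 1440 and 1787 to 189, 281 and 292 (log2 -2.67, adjusted p = 0.017). Sbds, which helps to release an assembly factor from new large subunits, fell from 10189, 8651 and 13809 to 3527, 2947 and 3832 (-1.64, adjusted p = 0.0273). The remaining fall was Nip7, also of ribosome assembly (-2.87, adjusted p = 0.0279), for which WT replicate 3 was the highest library. Translation initiation factors, with 53 genes tested, had 1 rise and 1 fall with all libraries, and the second fit added Eif4e, the cap-binding factor, as higher (0.84). Eif4h, a helper of the eIF4A helicase, rose (log2 2.57, adjusted p = 0.0291), and Eif2b4, a subunit of the eIF2 exchange factor, fell (-1.75, adjusted p = 0.0357).

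Chaperone and proteasome genes were called mostly higher, and for the proteasome this held only where WT replicate 3 was left out. Of 76 chaperonin, prefoldin and heat-shock genes, 4 were higher and 0 lower with all libraries, or 12 (15.8%, against 3.67% of all genes) and 3 (3.95%, against 4.04%) without WT replicate 3. Hsph1, a nucleotide exchange factor for HSP70, went from 10632, 8696 and 4669 in WT to 45302, 53921 and 38380 in CKO (log2 2.59, SE 0.35, adjusted p = 0.0143). WT replicate 3 was its lowest library. Hspa5, the HSP70 of the endoplasmic reticulum, stood at 2158, 1914 and 4541 and 9106, 7563 and 11931 (log2 1.82, adjusted p = 0.0496; without WT replicate 3 2.20, adjusted p = 0.00576). Here WT replicate 3 was the highest control. Dnajc9, an HSP70 co-chaperone for histones, rose too (log2 2.28, adjusted p = 0.0316). Besides Cct4, the chaperonin genes Cct2, Cct3, Cct6a and Cct7 were called higher without WT replicate 3, so that 5 genes of this single complex were among the 12. The 3 lower genes were Dnajc14 (-1.18), Dnajc30 (-1.35) and the prefoldin gene Pfdn4 (-2.31).

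None of 47 proteasome genes passed with all libraries, and 8 (17.0%, against 3.67% of all genes) were higher and 0 lower without WT replicate 3. These were the core particle genes Psma1, Psmb1, Psmb2, Psmb4 and Psmb7, the regulatory particle genes Psmc6 and Psmd11, and Pomp, which helps to assemble the core. Psmc6, an ATPase of the regulatory particle, stood at 700.2, 816 and 1007 in WT and 1868, 1907 and 2450 in CKO, and its groups did not overlap (log2 1.31, adjusted p = 0.0736; without WT replicate 3 1.44, adjusted p = 0.0203). Psmb2 stood at 909, 648 and 1546 and 3314, 1600 and 3125, so that WT replicate 3 nearly reached CKO replicate 3 (log2 1.39, adjusted p = 0.131; without WT replicate 3 1.73, adjusted p = 0.0333). The proteasome list median was 0.15, or 0.35 without WT replicate 3. For the median gene of this list WT replicate 3 lay 0.51 above the gene means, above every CKO library. The CKO libraries lay at -0.08 to 0.20, and WT replicates 1 and 2 at -0.37 and -0.30.

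Of 119 F-box and cullin ligase genes, 2 were higher and 0 lower with all libraries, or 11 (9.24%, against 3.67% of all genes) and 2 without WT replicate 3. Besides Fbxo5, described with the cell cycle, Fbxo40 rose by 1.70 on the log2 scale (adjusted p = 0.0406). Of the 11, Fbxw14, Fbxw19, Fbxw27 and Fbxw28 belong to an oocyte family of near-identical copies whose reads may be split between them, and their values are uncertain. Deubiquitinases were called both ways without WT replicate 3, 5 higher and 7 lower of 73 (6.85% and 9.59%, against 3.67% and 4.04% of all genes). With all libraries Usp2 passed, at 39013, 30403 and 18446 in WT and 8671, 8105 and 7121 in CKO (log2 -1.82, adjusted p = 0.0291). The CKO values of Usp2 were close together and the WT values spread widely, with replicate 3 the lowest. Of 115 RING and TRIM ligase genes 0 passed with all libraries, and 2 were higher and 6 lower without WT replicate 3. Another family, picked after its values were seen, was the COP9 signalosome with NEDD8 and SUMO conjugation, which modify cullin ligases and other proteins. Of its 21 genes 2 (9.52%, against 0.711% of all genes) were higher with all libraries and 6 (28.6%, against 3.67%) without WT replicate 3. The 6 were Cops4, Cops5, Cops8, Nedd8, Sae1 and Sumo3, and 0 genes were lower in either fit. Since these values were known when the family was picked, its shares draw no conclusion about it.

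**Figure D3:**
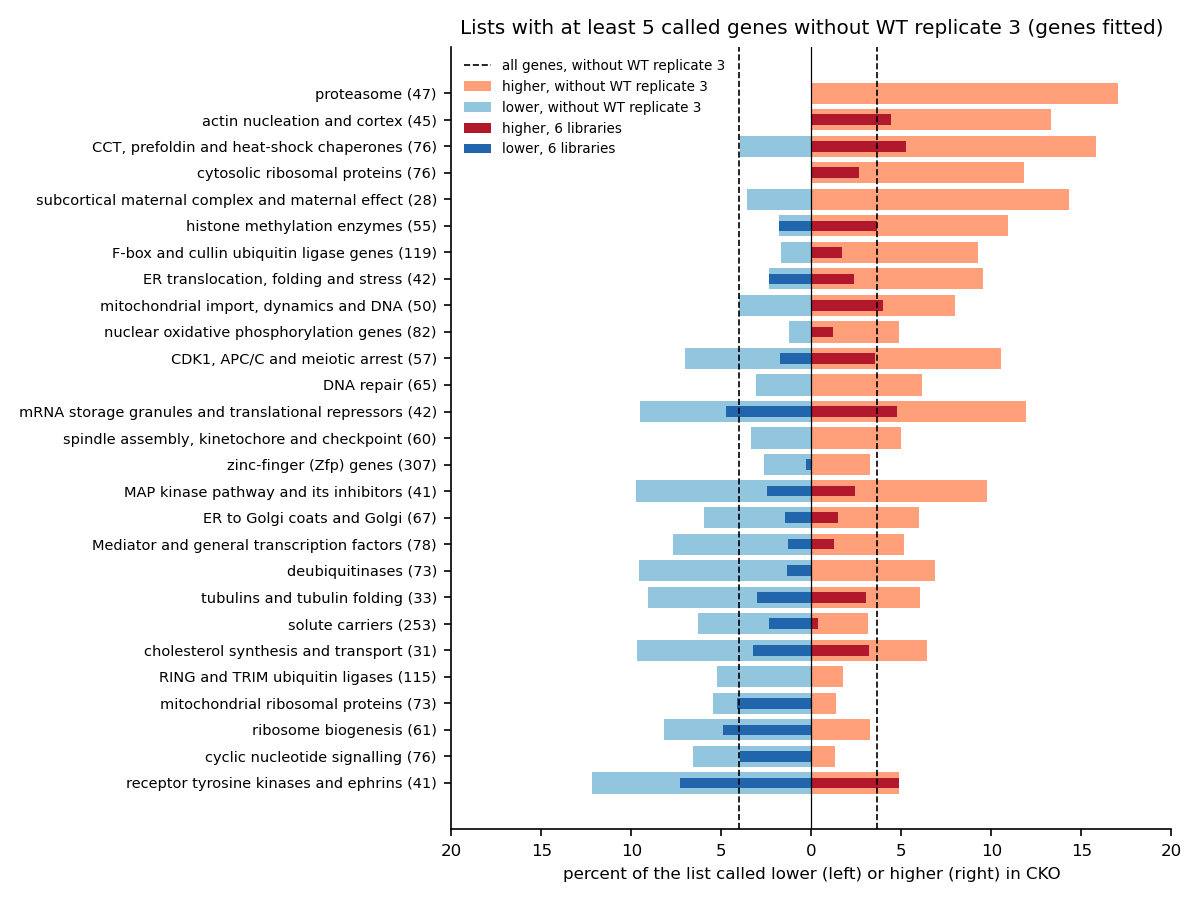
Share of each gene list called lower (left) or higher (right) in CKO eggs, for 27 lists with at least 5 calls without WT replicate 3, with the number of genes tested in parentheses. Pale bars are the calls without WT replicate 3, dark bars those with all 6 libraries, and the dashed lines mark the 4.04% lower and 3.67% higher among all genes.

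Cell-cycle regulators of the MII arrest were called in both directions. Of 57 genes of CDK1, the anaphase-promoting complex and meiotic arrest, 2 were higher and 1 lower with all libraries. Without WT replicate 3, 6 (10.5%, against 3.67% of all genes) were higher and 4 (7.02%, against 4.04%) lower. Besides Wee1, the rise was Fbxo5, which encodes the anaphase-promoting complex inhibitor EMI1, at 1885, 1947 and 1295 in WT and 4768, 5482 and 5609 in CKO (log2 1.65, adjusted p = 0.0286). All CKO values of Fbxo5 lay above the WT values. Its relative Fbxo43, or EMI2, the inhibitor that maintains the MII arrest, stood at 5008, 6876 and 16862 and 1904, 2666 and 3117. WT replicate 3 was far above the other WT libraries for this gene, and the CKO libraries were all below. Fbxo43 was called lower without WT replicate 3 (-1.23, adjusted p = 0.0394) and not with it (-1.73, adjusted p = 0.0863). Ppp1cc, the gamma isoform of the PP1 phosphatase, fell from 2617, 2118 and 2655 to 485, 522 and 769 (log2 -2.08, adjusted p = 0.0248). Gpr3, whose receptor sustains cyclic AMP and prophase arrest, was lower without WT replicate 3 (-1.46, adjusted p = 0.0338).

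Spindle genes gave no call with all libraries. This held for the spindle and kinetochore list (60 tested), the kinesins and dyneins (49) and cohesin and condensin (26). When WT replicate 3 was left out, these had 3 higher and 2 lower, 3 higher and 1 lower, and 1 higher and 2 lower genes. Among them Birc5, the survivin subunit of the chromosomal passenger complex, was higher (2.0, adjusted p = 0.0124), as was Kif2c, a microtubule depolymerase at centromeres (1.13, adjusted p = 0.0287). Cenpk, a kinetochore protein, was lower (-1.91, adjusted p = 0.0153). DNA replication genes had a single call each way among 58 tested with all libraries. Pold1, the catalytic subunit of DNA polymerase delta, rose from 1716, 1347 and 724 in WT to 7345, 5195 and 4387 in CKO (log2 2.21, adjusted p = 0.0291). Pole4, a small subunit of polymerase epsilon, fell from 6115, 8434 and 15309 to 2039, 2271 and 3455 (-1.88, adjusted p = 0.0487). WT replicate 3 was the lowest library for Pold1 and the highest for Pole4. Without it the list had 1 higher and 3 lower genes, since the cyclin gene Ccne2 (-1.5) and Gmnn, the geminin that blocks relicensing (-1.75), were then lower too. Of 65 DNA repair genes and 25 genes of meiotic prophase 0 passed with all libraries. The second fit called 4 repair genes higher and 2 lower (6.15% and 3.08%, against 3.67% and 4.04% of all genes). It called 3 prophase genes (12%, against 3.67%) higher and 0 lower. The prophase genes were Sycp3, of the synaptonemal complex (2.42, adjusted p = 0.0388), Meioc, which sustains meiotic entry (5.13), and Tex15 (1.30). Sycp3 stood at 120.2, 171 and 853 in WT and 406, 825 and 1386 in CKO, and Meioc at 0, 7.18 and 86.2 and 109, 132 and 67.5, so that WT replicate 3 lay among the CKO libraries for both. Tex15, at 3403, 3235 and 3485 and 7005, 10725 and 7293, did not overlap in any library.

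DNA and histone methylation enzymes were called more often higher than lower. Of 20 DNA methylation and imprint genes 1 was higher with all libraries and 4 (20%) without WT replicate 3, and 0 were lower. Kdm1b, a histone demethylase needed to set imprints in oocytes, was abundant, at 10418, 10027 and 11341 in WT and 30587, 27132 and 29279 in CKO (log2 1.45, SE 0.23, adjusted p = 0.0248). Both groups were narrow, and WT replicate 3 lay with the other WT libraries. Among the others were Dnmt3l, the cofactor of de novo DNA methylation (1.24), and Zfp445, which protects imprints (1.51). Of 55 histone methylation enzymes 2 were higher and 1 lower, or 6 (10.9%) and 1 without WT replicate 3, where 3.67% of all genes were higher. The lower one was Kdm7a, another histone demethylase, at 4185, 4533 and 7797 and 362, 572 and 862 (log2 -3.23, adjusted p = 0.0142). Histone genes, with 32 tested, had 1 call, H2aj, a replacement histone. It stood at 526, 624 and 594 in WT and 52.3, 78.5 and 66.1 in CKO (log2 -3.14, adjusted p = 0.0263), with narrow groups far apart. Histone acetylation enzymes, with 38 tested, had 0 calls with all libraries and 3 lower genes without WT replicate 3, Brd3 (-0.97), Kat5 (-1.08) and Kat6a (-0.80), against 0 higher. For Kat5 the WT replicate 3 library was below every CKO library, and for Brd3 and Kat6a it lay above all of them.

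Among general transcription genes the calls went both ways. Gtf2f1, a subunit of the general factor TFIIF, fell from 12205, 11975 and 13542 in WT to 3518, 3319 and 2963 in CKO (log2 -1.95, SE 0.24, adjusted p = 0.0112). Med12l, a Mediator kinase-module subunit, rose from 1119, 1115 and 636 to 4844, 5788 and 4255 (2.41, adjusted p = 0.0155). In neither gene did the groups overlap, as was so for all 321 calls with all libraries. With 78 genes tested, Mediator and general transcription factors had 4 higher and 6 lower (5.13% and 7.69%, against 3.67% and 4.04% of all genes) without WT replicate 3. Among 307 zinc-finger (Zfp) genes the shares called in that fit were 3.26% higher and 2.61% lower, near those of all genes.

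Calls among oocyte transcription factors and zona and fusion genes were higher, and those among egg activation genes went both ways. Nobox, a homeobox factor of growing oocytes, rose from 47847, 39370 and 19384 in WT to 144697, 139534 and 121815 in CKO (log2 2.02, SE 0.37, adjusted p = 0.0333). WT replicate 3 was its lowest library. It was 1 of 27 oocyte transcription factors called with all libraries, and the pluripotency factor genes Esrrb (1.08) and Pou5f1 (1.0) joined it without WT replicate 3, with 0 lower in either fit. Cd9, the tetraspanin needed for sperm-egg fusion, stood at 126, 79.6 and 353 and 3014, 2301 and 3178 (log2 4.19, adjusted p = 0.0143). Of 25 zona, fusion and secreted factor genes 2 were higher with all libraries and 4 without WT replicate 3 (16%, against 3.67% of all genes), with 0 lower, when Zp3, the sperm-binding zona glycoprotein, joined (1.41, adjusted p = 0.0153). In the list of 28 maternal-effect genes, which includes the subcortical maternal complex, 0 passed with all libraries. Without WT replicate 3, 4 were higher and 1 lower (14.3% and 3.57%, against 3.67% and 4.04% of all genes). Nlrp14, a maternal NLR protein, was among the higher ones (1.29, adjusted p = 0.03), at 79985, 63075 and 63309 in WT and 147142, 186280 and 193162 in CKO. Its groups did not overlap, with or without WT replicate 3. Of 31 egg activation and calcium genes 0 passed with all libraries. The shares were 6.45% each way (2 higher and 2 lower, against 3.67% and 4.04% of all genes) without WT replicate 3. Leaving it out called Calm2, a calmodulin gene (1.21), and Camk4, a calmodulin kinase (1.85), higher and Camk2g, the calmodulin kinase that drives egg activation, lower (-0.81, adjusted p = 0.0462), together with the calcium sensor gene Stim2 (-1.27). None of 21 cortical granule and exocytosis genes passed in either fit.

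Calls among actin genes were higher in CKO. Of 45 genes of actin nucleation and cortex 2 were higher with all libraries and 6 (13.3%, against 3.67% of all genes) without WT replicate 3, and 0 were lower in either fit. For the median gene of this list WT replicate 3 lay 0.34 above the gene means, above every CKO library. The CKO libraries lay at 0.03 to 0.15, and WT replicates 1 and 2 at -0.18 and -0.19. Actg1, the gamma actin, went from 1987, 2180 and 1433 in WT to 7113, 5380 and 6095 in CKO (log2 1.74, SE 0.29, adjusted p = 0.0262). Actb, the beta actin, stood at 2895, 2294 and 2897 and 8031, 5327 and 5310 (log2 1.19, adjusted p = 0.0729; without WT replicate 3 1.24, adjusted p = 0.0319). Neither gene overlapped between groups, and Actb passed in the second fit only. Besides Arpc1a, the Arp2/3 genes Actr3 (1.34) and Arpc3 (1.92) were higher without WT replicate 3, as was the profilin gene Pfn2 (1.04). Tubulin genes went both ways, with 1 call each way of 33 with all libraries and 2 higher and 3 lower without WT replicate 3. Tubb2a was higher, at 4218, 4364 and 5518 and 26191, 16558 and 19592 (log2 2.13, adjusted p = 0.0143), and Tuba3b lower, at 1324, 1224 and 1647 and 227, 93.7 and 146 (-3.24, adjusted p = 0.0184). Actins and tubulins come in families of near-identical copies, and these values are uncertain. Of 25 cell polarity genes 1 (4%, against 1.38% of all genes) was lower with all libraries and 3 (12%, against 4.04%) without WT replicate 3, and 0 were higher. Pard6g, an adaptor of the PAR complex, stood at 1359, 1268 and 4226 in WT and 6.88, 40.5 and 46.8 in CKO (log2 -6.28, adjusted p = 0.0143). The others were its relative Pard6b (-1.5 without WT replicate 3) and Llgl2 (-1.02).

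Ephrin signalling genes were called on both sides, with all libraries receptors higher and ligands lower. Of 41 receptor tyrosine kinase and ephrin genes 2 were higher and 3 lower with all libraries (4.88% and 7.32%, against 0.711% and 1.38% of all genes). Without WT replicate 3 there were 2 and 5 (4.88% and 12.2%, against 3.67% and 4.04%). The rises were the Eph receptor genes Epha7 and Epha10 (log2 2.29, adjusted p = 0.0291), and the falls were the ephrin genes Efna1 and Efna4 and the VEGF receptor gene Flt1. Efna1 stood at 1977, 2178 and 4922 in WT and 118, 98.7 and 248 in CKO (log2 -4.27, adjusted p = 0.0111). Efna4 was at 0 in every CKO library against 252, 240.5 and 1663 in WT. Both ephrin genes had their highest value in WT replicate 3. The fit without that library also called the Eph receptor gene Epha2 and the EGF receptor gene Egfr lower. Epha2 was at 0 in every CKO library and at 162, 38.3 and 2.56 in WT. Egfr stood at 6376, 5300 and 2026 in WT and 2598, 2988 and 2000 in CKO (log2 -1.22 without WT replicate 3), and WT replicate 3 lay among the CKO libraries. Spry1, a feedback inhibitor of receptor tyrosine kinase signalling, fell from 4103, 3872 and 3270 to 478, 281 and 441 (log2 -3.26, SE 0.34, adjusted p = 0.0111). Mapk7, the kinase ERK5, rose from 583, 384 and 320.5 to 2228, 1843 and 1264 (2.06, adjusted p = 0.0382). These were the calls with all libraries among 41 genes of the MAP kinase pathway and its inhibitors. Without WT replicate 3 the list had 4 higher and 4 lower genes (9.76% each way, against 3.67% and 4.04% of all genes).

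Cyclic nucleotide genes, whose signal holds the prophase arrest, had 0 higher and 3 lower calls of 76 with all libraries. The share lower was 3.95%, against 1.38% of all genes. The lower genes were Atf1 and the kinase-anchoring genes Akap8l (-2.74, adjusted p = 0.0217) and Akap12 (-1.92, adjusted p = 0.0279). Without WT replicate 3, 1 gene of this list was higher and 5 (6.58%, against 4.04%) lower. The list medians were near 0, at -0.01 and -0.03. Kcnh3, a voltage-gated potassium channel gene, was at 2626, 3229 and 5562 in WT and 78.5, 96.2 and 110.2 in CKO (log2 -5.25, SE 0.43, adjusted p = 0.00429). Its CKO values were close together, and all were far under the WT values. Of 36 potassium channel genes it was the 1 call with all libraries. Without WT replicate 3, 1 was higher and 3 lower (2.78% and 8.33%, against 3.67% and 4.04% of all genes). Of 43 genes of the PI3K, AKT and mTOR pathway and 29 of the Wnt pathway 0 passed with all libraries. The fit without WT replicate 3 called Tsc1, a brake on mTOR, higher (1.31), Rptor, a subunit of mTOR complex 1, lower (-1.24). It called 2 Wnt genes higher and 2 lower. The higher ones were Wls, which carries Wnt proteins to the surface (2.92), and the ligand gene Wnt5a (2.35), and the lower ones Rnf43, which removes Wnt receptors (-1.87), and the transcription factor gene Tcf7l2 (-1.97).

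Mitochondrially encoded and nuclear genes of oxidative phosphorylation had medians of opposite sign. None of the 13 mitochondrially encoded mRNAs passed in either fit, and their median was -0.91, or -0.37 without WT replicate 3. For the median of these 13, WT replicate 3 lay 1.5 above the gene means and CKO replicate 2 at -1.14, and the other libraries lay between -0.40 and 0.21. Of 82 nuclear oxidative phosphorylation genes 1 was higher with all libraries, and 4 were higher and 1 lower without WT replicate 3, with medians of 0.18 and 0.43. For the median gene of this list WT replicate 3 lay 0.66 above the gene means, above every CKO library. CKO replicates 2, 3 and 4 lay at 0.59, -0.21 and 0.33, and WT replicates 1 and 2 at -0.49 and -0.37. The call with all libraries was Atp5pb, of the ATP synthase stalk, at 346, 223 and 432 in WT and 1497, 1099 and 1712 in CKO (log2 2.13, adjusted p = 0.0373). Chchd2, a regulator of respiration in the intermembrane space, rose from 37.1, 80.8 and 239 to 2285, 1223 and 2401 (log2 4.38, adjusted p = 0.0236). In both genes WT replicate 3 was the highest control and stayed under every CKO library.

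Sterol and purine enzymes gave a few calls. Stard4, a cholesterol transfer protein, rose from 566, 294 and 589 in WT to 3479, 4507 and 3953 in CKO (log2 3.10, SE 0.37, adjusted p = 0.0111). Scarb1, the receptor for high-density lipoprotein, fell from 1456, 1202 and 1044 to 405, 337 and 370.5 (-1.72, adjusted p = 0.0487). Among 31 cholesterol genes these were the calls with all libraries, and without WT replicate 3 there were 2 higher and 3 lower. Gart, a multifunctional enzyme of purine synthesis, rose from 257, 273 and 435 to 1667, 1155 and 1083 (2.03, adjusted p = 0.0431). Impdh2, the enzyme that commits to guanine nucleotides, rose from 0, 5.98 and 3.59 to 227, 215 and 152 (5.95, adjusted p = 0.0359). Impdh2 was at or near 0 in all WT libraries. Of 253 solute carriers 1 was higher and 6 lower with all libraries. Without WT replicate 3 the shares were 3.16% and 6.32%, against 3.67% and 4.04% of all genes. Slc30a2, a zinc transporter, was the rise (log2 3.41, adjusted p = 0.0267), and the mitochondrial aspartate-glutamate carrier gene Slc25a13 was among the falls (-2.02, adjusted p = 0.0322). Lists of glycolysis (21 genes), the citric acid cycle (35), fatty acid oxidation (32) and redox (34) had 0 calls with all libraries. Without WT replicate 3 glycolysis had 1 higher and 0 lower genes, the citric acid cycle 2 and 0, and fatty acid oxidation 2 and 1. The shares higher were 4.76%, 5.71% and 6.25%, against 3.67% of all genes. The redox list had 3 higher and 0 lower genes without WT replicate 3, namely the peroxide-removing Gpx1 (2.92), Prdx3 (2.24) and Prdx6 (3.45).

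**Figure D4:**
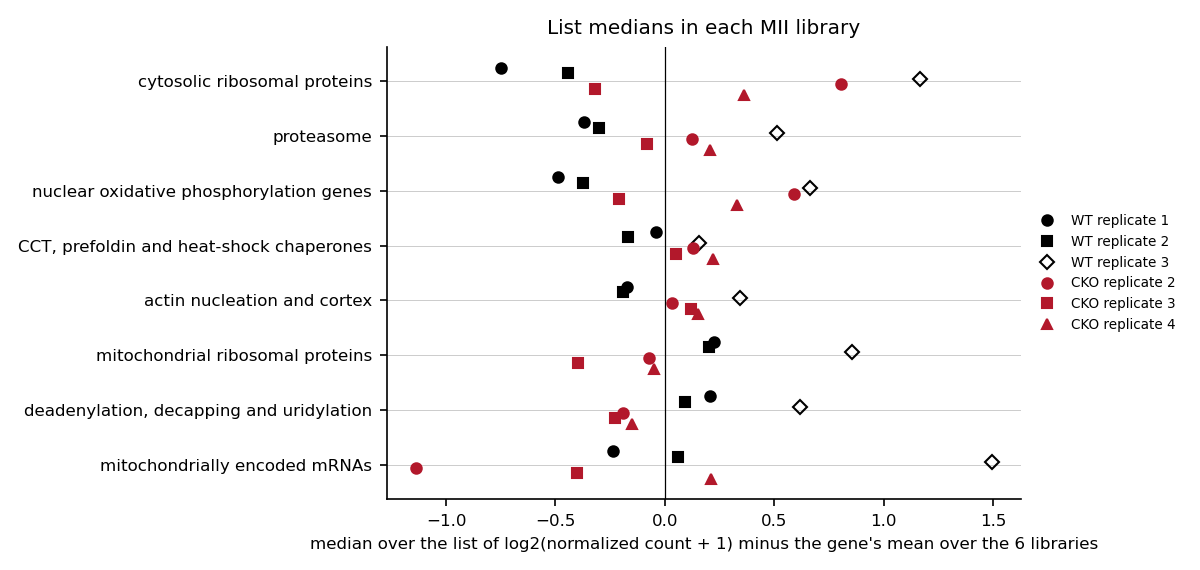
Median over each of 8 lists of the difference, in log2 units, between a library and the gene's mean over the 6 libraries (horizontal axis), with 1 mark per MII library. WT libraries are black, with WT replicate 3 as an open diamond, and CKO libraries are red. WT replicate 3 lies above every other library in all of these lists except the chaperones. It is at 1.17 for the cytosolic ribosomal proteins and at 1.5 for the mitochondrially encoded mRNAs.

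Genes for GTPase-activating proteins and a secreted inhibitor gave further rises. Arhgap39, a GTPase-activating protein, rose from 2103, 2150 and 2838 in WT to 8010, 7717 and 6278 in CKO (log2 1.64, adjusted p = 0.0261). Arhgap24, of the same family, was at or near 0 in WT, at 0, 6.58 and 0, and at 380.0, 481 and 332 in CKO (adjusted p = 0.0205). Chrdl1, a secreted BMP antagonist, was the 1 call among 26 genes of the TGF-beta and BMP pathway (4.53, adjusted p = 0.0329). The list of endoplasmic reticulum translocation and folding (42 genes) had Hspa5 higher and Srp19 lower, and 4 higher and 1 lower in the second fit, when Atf4, the stress transcription factor, joined the rises (2.09, adjusted p = 0.0172). Atf4 stood at 968, 1106 and 4144 in WT and 3986, 3076 and 7038 in CKO, with WT replicate 3 among the CKO libraries. Embryonic genome activation markers of the two-cell stage (15 genes) had 0 calls with all libraries and 1 each way in the second fit. Nuclear pore genes (35), chromatin remodellers (39) and RNA polymerase subunits (28) had 0 calls with all libraries, as had 23 interferon and nucleic acid sensing genes. In the second fit nuclear pore genes had 0 higher and 1 lower, and remodellers and polymerase subunits 1 each way, with shares under those of all genes. The interferon list had 2 higher and 1 lower (8.70% and 4.35%, against 3.67% and 4.04% of all genes).

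Secretory and membrane-traffic genes gave single calls. Golga5, a golgin, fell (log2 -1.90, adjusted p = 0.0273), and Sec23b, a COPII coat protein, rose (2.34, adjusted p = 0.0373), with 67 genes of this list tested, of which 4 were higher and 4 lower without WT replicate 3. Mgat4a, an N-glycan transferase, rose (1.46, adjusted p = 0.0462), as did Ambra1, a promoter of autophagosome formation (1.44, adjusted p = 0.0439). Of 56 Rab GTPase genes, 74 ESCRT and endosome genes and 39 lysosome genes 0 passed with all libraries. Without WT replicate 3 these lists had 1 higher and 1 lower, 1 and 2, and 1 and 0, with shares under those of all genes. Of 37 p53 family and apoptosis genes 0 passed with all libraries. When WT replicate 3 was left out, Trp63, the p53 relative that guards the oocyte genome, was higher (1.24, adjusted p = 0.0241), and its relative Trp73 (-2.23) and Bcl2l10, an egg BCL2 relative (-1.41, adjusted p = 0.0342), were lower. Bcl2l10 stood at 38607, 48053 and 181975 in WT and 13256, 13277 and 24007 in CKO, and WT replicate 3 was far above the other controls. Of the 24 tested genes of the circadian clock, another family picked after its values were seen, 0 passed with all libraries. Without WT replicate 3, Per3 was higher and Clock, Npas2, Nr1d1 and Noct were lower. These shares were 4.17% and 16.7%, against 3.67% and 4.04% of all genes, and given that choice they draw no conclusion about the family.

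Most genes that differed at the GV stage leaned the same way in MII eggs. The GV libraries are other samples; whether they came from the same animals is not given in the sources used here. The authors' deposited table listed 1064 genes higher and 1694 lower in CKO at GV at an adjusted p under 0.05, and it held no gene with a log2 fold change under 1.0 in size. Of the higher ones 869 were tested at MII, and 793 of them (91.25%) had a positive log2 difference, with a median of 1.43, where 48.75% of all genes had one. Of the 1376 GV-lower genes tested at MII, 1236 (89.83%) had a negative difference and the median was -1.55. Leaving out WT replicate 3 gave shares of 92.52% and 95.2% and medians of 1.33 and -1.67, against 44.82% positive among all genes. As calls, 70 of the 869 (8.05%) were higher at MII and 0 lower, and 165 of the 1376 (11.99%) were lower and 0 higher. Without WT replicate 3 the 869 had 219 higher and 0 lower, and the 1376 had 349 lower and 1 higher. Taken from the MII side, 64.22% of the 109 rises and 77.83% of the 212 falls were calls of the authors' deposited table at GV. The other 39 rises, among them Coq9, Cd9, Tubb2a, Fbxo5 and Pold1, and 47 falls, among them Srp19, Sbds, H2aj, Ppp1cc and Usp2, were not in that table of selected genes.

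**Figure D5:**
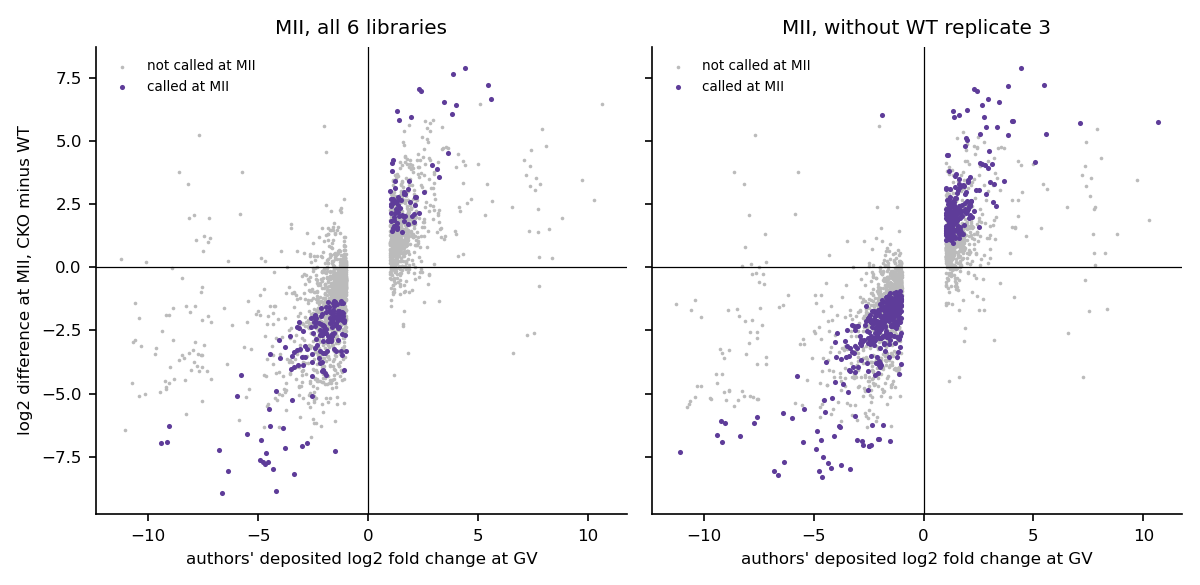
Log2 difference between CKO and WT at MII (vertical axis) against the authors' deposited log2 fold change at GV (horizontal axis) for the genes listed at GV with an adjusted p under 0.05 and tested at MII, with all 6 MII libraries on the left and without WT replicate 3 on the right. Purple points are genes called at MII, and they lie in the quadrants of equal sign except for 1 gene on the right.

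Coding length and GC share moved with some libraries. For the 2506 genes with the shortest coding part (114 to 804 bases) WT replicate 3 lay 0.55 above the gene means and CKO replicate 3 at -0.28, and for the 2488 with the longest (from 2631 bases) they lay at -0.30 and 0.20. The other libraries lay between -0.05 and 0.14 in both classes. The median log2 difference between CKO and WT was -0.25 in the shortest class and 0.08 in the longest with all libraries, and -0.15 and -0.06 without WT replicate 3. Many genes of the ribosome, the proteasome and oxidative phosphorylation have short coding parts, and the part of coding length in their differences was not tested. By GC share at the third codon position, the median was -0.21 in the class of highest share (from 68.7%) and 0.03 in the class of lowest (up to 48.1%), or -0.27 and 0.01 without WT replicate 3.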

How the data were processed

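RNA from tubes of 15 oocytes was sequenced, with standard Illumina library preparation, per the labels' protocols. Not given in the sources used here are the aligner, genome build, annotation, counting method and strand setting, so overlapping and antisense genes and near-identical copies are uncertain. The MII values are deposited as log10(normalized count + 1), where the counts had been divided by the authors' size factors; this follows from the values, since 10 to the power of each value, minus 1, averages to the deposited mean signal (baseMean, per the file headers). The authors' log2 fold changes, their test score (the fold change over its standard error) and their p-value and adjusted p stand beside them, per the file headers. Whole reads were recovered from the steps of the values: 100% were whole within 0.05, and the genes tested held 99.96% of all reads.

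The 15336 genes that averaged 10 or more normalized counts over the 6 libraries (7465 did not) were fitted with limma 3.58.1 in R 4.3.3 on log2(normalized count + 1), genotype as the only term, with a mean-variance trend and a two-sided moderated test. Adjusted p-values are Benjamini-Hochberg values over all 15336 genes, with a threshold of 0.05, and a log2 difference on this scale understates the change of low genes. The fit was repeated without WT replicate 3. It was also run on simulated data in which all libraries had the same spread and none stood apart. That setting differs from these data, so the run says nothing about the effect of WT replicate 3. A raw count table had been assumed possible in planning; because the deposited values are normalized, reads served only for depth and for limma-voom.

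Members and lists were chosen with earlier results of these data known. The genes named are Lsm14b and Lsm14a; the 12 largest rises and falls under the conditions given in the text; in each of 76 lists up to 6 called members by p, or up to 2 of the smallest p where none was called; and the 8 largest changes called only without WT replicate 3. A few genes and lists that this rule covers are not reported here. Names beyond this rule complete a count and were chosen after their values were seen. From lists defined by symbol patterns, pseudogenes, opposite-strand transcripts and unrelated symbols were left out after the data were seen. The alternatives were array weights, limma-voom, other filters, pseudocounts and scalings, thinned reads, the replicate number as a block and leaving out each library. 3′ UTRs and coding lengths are from GENCODE vM21 (GRCm38), matched by symbol.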

Additional observations from a re-analysis of the deposited data

Results flagged for a closer look

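Slc9a5, a sodium-proton exchanger gene, lay higher in CKO eggs at MII and lower at GV. Its MII normalized counts were 0, 0 and 20.51 in WT replicates 1, 2 and 3 and 151, 104 and 16.5 in CKO replicates 2, 3 and 4, so CKO replicate 4 lay under WT replicate 3. Without WT replicate 3 the log2 difference was 6.03 (SE 1.36, limma adjusted p = 0.0384), and with all libraries it was 4.56 (adjusted p = 0.174). In the authors' deposited table the log2 fold change of Slc9a5 at GV was -1.90 (adjusted p = 0.026). The difference between the stages was not tested, and it is the 1 gene called in opposite directions at GV and at MII without WT replicate 3.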

How the results depend on the processing

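With all 6 libraries, 109 genes were higher and 212 lower in CKO. Array weights, which gave WT replicate 3 a weight of 0.191, called 1091 and 1426, and the authors' deposited adjusted p called 737 and 1113. limma-voom called 25 and 31, a pseudocount of 10 called 192 higher, and quantile normalization 173 higher. With the replicate block, 130 genes were higher and 136 lower, of which 41 and 68 were among the calls without it. The block pairs replicates 2 and 3 of the genotypes by number only: their deviations correlated at 0.0299 and -0.125. Leaving out each library in turn gave 0 to 563 higher and 0 to 619 lower, the upper ends without WT replicate 3.

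Without WT replicate 3, 563 genes were higher and 619 lower. On these 5 libraries array weights called 986 and 1217, limma-voom 959 and 1177, and a minimum mean of 100 called 908 and 1029. A minimum mean of 1 called 266 higher, no filter 197 higher, quantile normalization 853 higher, and a pseudocount of 10 called 950 lower. Leaving out 1 more library gave 0 to 437 higher and 1 to 620 lower, the lower ends without CKO replicate 2. The block could not be fitted on 5 libraries. The cause of these shifts was not tested. Of the log2 differences of the 299 named genes under these alternatives, 0 changed sign where the difference had been called: with 6 libraries 4081 stayed on their side of the threshold, 635 lost the call and 654 gained it, and without WT replicate 3 the numbers were 2954, 1508 and 11. The medians of the cytosolic ribosomal protein, proteasome, chaperone, actin, DNA methylation and nuclear oxidative phosphorylation lists stayed positive, and those of the mitochondrial ribosomal protein, deadenylation, exosome, polarity and mitochondrially encoded lists negative, with library totals, quantile normalization and limma-voom in both fits. One read was worth 0.513 to 0.598 normalized counts in WT and 1.38 to 2.53 in CKO, which limits what a CKO value near 0 can show.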
